A study of Homo sapiens with 12 samples.

Results

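Untreated PANC-1 cells were described from 4 arrays of the 12 in the series, chosen by their titles, which name them untreated replicates 1 to 4. The other 8 arrays hold the same line after 48 h in 1 µM or 4 µM tamoxifen and were not used here. PANC-1 is an established human cell line derived from an adenocarcinoma of the pancreatic duct. All 12 samples stably carry an E47 that tamoxifen switches on, so the untreated cells are not the parental line, and they were grown in RPMI with fetal bovine serum. The labels name no vehicle or time for the untreated cells, no parental cells, no clone, and no promoter for the introduced E47. They do not say whether the 4 replicates came from separate cultures, so the spread between arrays may be technical, and 4 arrays limit the precision of every value.

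The adult exocrine pancreas consists mainly of acinar cells, which make digestive enzymes, and of ductal cells, which line the channels that carry them away, while islets hold the hormone cells. Ductal adenocarcinoma cells usually carry ductal keratins and can take on mesenchymal features. E47 is an E protein, a basic helix-loop-helix (bHLH) transcription factor made from the gene TCF3. E proteins bind short DNA motifs called E-boxes, partner in acinar cells with PTF1A, and are held off DNA by the ID proteins, which pair with them but lack a DNA-binding region.

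Total RNA was read on Illumina bead arrays, and values are probe intensities on a linear scale, quantile-normalized between arrays. A gene was called present when a probe of it exceeded 127.7 on all 4 arrays, absent when none of its probes did so on any array, and mixed otherwise. The threshold is the mode of the intensities (101.7) plus the one-sided 95% normal quantile times a standard deviation (SD) of 15.8 taken from the side below the mode. Of 20046 genes with a named probe, 10403 were present (51.9%), 6938 were absent (34.6%) and 2705 were mixed (13.5%). Each array held 21116 to 21125 probes above the threshold and a median intensity of 119.9, ranges made narrow by the normalization. Values below are means ± SD over n = 4 arrays of each gene's brightest probe, with all 4 values where a result turns on the gene. The rank, from 1 for the brightest of 20046 genes, orders probe signals. Probes differ in how well they bind, so no order of RNA amounts between genes is read from it.

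Genes at the threshold show what the calls rest on. PPP2R5B, LRRC37A and ADGRG4 lay just inside, with lowest values of 127.7 each, and PPP2R5B had its highest at 176. ACTL6B, GAS5 and FRZB lay just outside, with highest values of 127.6 each, and ACTL6B had its lowest at 83.7. Genes of smell and bitter taste receptors, which serve sensory cells, give a view of how often the threshold is passed by genes with no known use in this line. Of 396 such genes, 8 were present (2.02%), 58 mixed and 330 absent. OR11H1 was the brightest of the 8 at 249.7 ± 23.8, and OR52N5 the dimmest at 139.6 ± 9.15. Signals of about this size were therefore also read from olfactory receptor probes. This limits every present call in that range, also where it is not repeated below.

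Mean signal ran over a wide range with few genes at its top. In all, 335 genes (1.67%) averaged above 10000, 3679 (18.4%) between 1000 and 10000, 7497 (37.4%) between the threshold and 1000, and 8535 (42.6%) below the threshold. The 100 brightest genes together gave 15% of the summed signal. The curve of signal against rank places the lineage genes described below on that range.

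**Figure D1:**
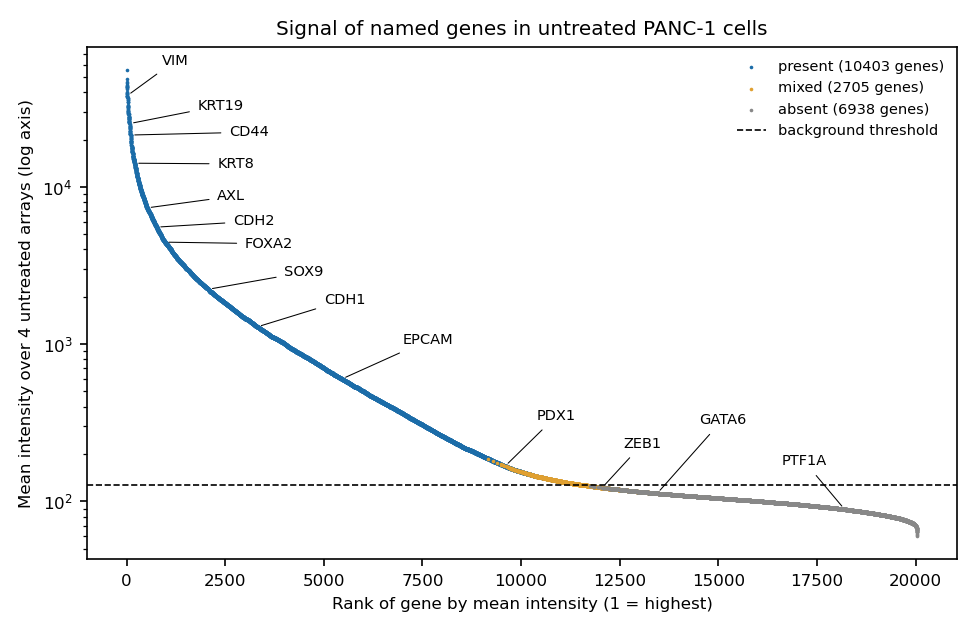
Mean intensity over the 4 untreated arrays (log axis) against rank for 20046 named genes, coloured as present (10403), mixed (2705) or absent (6938), with the background threshold dashed. VIM, KRT19, CD44 and KRT8 lie near the top, CDH1 and EPCAM in the middle of the present genes, PDX1 just above the threshold and ZEB1, GATA6 and PTF1A below it.

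The 30 brightest genes were mostly those of translation, the cytoskeleton and glycolysis. EEF1A1, the translation elongation factor that brings aminoacyl-tRNA to the ribosome, ranked first with 63623, 51905, 51905 and 53106. Cytosolic ribosomal protein genes took 10 of the first 30 places, 30 of the first 100 and 48 of the first 300, and 78 of 86 such genes were present, with 2 mixed and 6 absent. ATP5F1B, a subunit of mitochondrial ATP synthase, read 45323, 50952, 40983 and 49547. Of 72 mitochondrial respiratory subunit genes, a set without ATP5F1B, 63 were present (87.5%, beside 51.9% of all genes). ENO1, the glycolytic enzyme enolase, averaged 42234 ± 2238 at rank 11. LDHA, which makes lactate, averaged 34424 ± 4227 at rank 30. Actin and tubulin genes took 4 of the first 30 places. ACTB, the main cytoplasmic actin, read 36913, 42627, 35397 and 41822. ACTG1, its close relative, read 32352, 34908, 33849 and 50952, and array 4 stood well above the other 3. S100A10 and ANXA2 encode the partners of a complex at the cell membrane, and both were among the first 10. S100A10 averaged 44594 ± 3147 at rank 5, and ANXA2 averaged 43512 ± 5876 at rank 6. MFGE8, a secreted protein that tags dying cells for uptake, was rank 15 at 39369 ± 1737.

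The high rank of a few genes rests on 1 probe of several. LAIR1, an inhibitory receptor known from immune cells, read 38385, 38908, 46069.9 and 35861 on its brighter probe, while its other probe was below the threshold on all 4 arrays. CLEC2D, a lectin-like receptor known from lymphocytes, read 37318 ± 5309, with 2 of 5 probes above the threshold on all arrays and 3 on none. The chemokine receptor gene CCR6 averaged 14696 ± 2119.6, with 2 of its 3 probes above the threshold. F2R, which encodes the thrombin receptor PAR1, averaged 32793 ± 5955 on the brighter of its probes, and the dimmer one, at 1309 ± 81.1, was also above the threshold on all 4 arrays. Probes of a gene disagreed as for LAIR1, CLEC2D and CCR6, some above on 4 arrays and some on none, for 1591 of the 6691 genes with several probes, and for 18 of 161 such genes among the 300 brightest. Such a gene counts as present when at least 1 of its probes passes on all 4 arrays, and its value is that of the brightest. The genes of ribosomal proteins, actins, PPIAL4A and EIF3CL have near-identical copies elsewhere in the genome, and a probe may read several of them.

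Ductal markers ran from the very bright keratin genes KRT19 and KRT8 to genes near or below the threshold. Of 24 ductal markers on the array, 11 were present, 5 mixed and 8 absent, a present share of 45.8% beside 51.9% for all genes. Their median lay at 54.6% of the ranking, where the median of all genes is at 50% by construction. KRT19, the simple-epithelium keratin most used to mark ducts, read 22687, 23557, 26675 and 28109 and ranked 74. KRT8, another simple-epithelium keratin, read 14161, 12421, 13999.6 and 15985. Both were bright on all 4 arrays. SOX9, a transcription factor of ducts and pancreatic progenitors, read 2092, 1846, 2086 and 2908, highest on array 4. MUC1, the membrane mucin of duct surfaces, read 1004, 1167, 1121 and 825. KRT18, the usual partner of KRT8, averaged 883 ± 107. CD24, a surface glycoprotein, averaged 5591 ± 606. KRT7, the other keratin used to mark ducts, averaged 214 ± 25, in the range also read from olfactory receptor probes. CFTR, the chloride channel of duct cells, read 109.8, 121, 110.3 and 135 and passed the threshold on 1 of 4 arrays. CA2, a carbonic anhydrase of bicarbonate secretion, read 117, 111, 152 and 131 and passed it on 2. The secretin receptor gene SCTR, the bicarbonate transporter gene SLC4A4 and the water channel gene AQP5 were absent. In such a bulk sample, fewer cells that express a gene and less of its RNA per cell cannot be told apart.

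Acinar enzyme genes were almost all at background. Of 32, 1 was present (3.12%, beside 51.9% of all genes), 11 mixed and 20 absent, and their median lay at 72% of the ranking. AMY2A, a pancreatic amylase, was the present one, with 136, 144, 143 and 132, on 1 of its 4 probes, and amylase genes are near-identical copies. AMY2A's values lie in the range also read from olfactory receptor probes. The number of present enzyme genes was 2 without array 1 and 3 without array 4. CELA3A, a pancreatic elastase, read 117, 128, 125 and 175, above the threshold on 2 arrays and highest on array 4. CEL, the bile salt-dependent lipase, read 119, 129, 145 and 131. PRSS1, the cationic trypsinogen, read 83.5, 96.2, 97.7 and 98.6 and was absent. Also absent were its near-copy PRSS2, the carboxypeptidase genes CPA1 and CPB1, and PNLIP, the pancreatic triglyceride lipase. CPA1 averaged 70.6 ± 5.86 and PNLIP 80.8 ± 4.73. Summed over the 32 genes, the signal was 3307 to 3424 on the 4 arrays, beside 4086 for 32 genes at the threshold.

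Acinar enzyme promoters were searched for an E-box that E47 is known to bind, CAGGTG, read on either strand as CAGGTG or CACCTG. Windows of 250 bases before to 50 after the annotated start were taken from RefSeq (GRCh38.p14), and 25 of the 32 acinar enzyme genes had one. Of these, 11 (44%) held at least 1 CAGGTG on either strand, and 20.6% of all 27305 promoters in the table did. The share was 22.3% in absent protein-coding genes, 47.6% in epithelial junction genes and 10.7% in mesenchymal state genes. A high share is thus not particular to the acinar list, and the shares were not adjusted for base composition. The 4 acinar promoters shown belong to an elastase, a trypsinogen, a lipase and a carboxypeptidase gene, all mixed or absent before induction. Capitals mark CAGGTG or CACCTG, and every sequence is printed 5′ to 3′ on the gene's own strand. CELA3A lies at chr1:22001407-22001706, PRSS1 at chr7:142749222-142749521, CEL at chr9:133061731-133062030 and CPB1 at chr3:148827561-148827860, all on the plus strand.
CELA3A: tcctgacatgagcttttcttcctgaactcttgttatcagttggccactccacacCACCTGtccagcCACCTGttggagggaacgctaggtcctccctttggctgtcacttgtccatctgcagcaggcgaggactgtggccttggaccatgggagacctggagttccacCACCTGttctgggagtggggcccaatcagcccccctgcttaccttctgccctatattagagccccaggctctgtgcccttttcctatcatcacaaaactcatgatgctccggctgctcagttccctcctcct
PRSS1: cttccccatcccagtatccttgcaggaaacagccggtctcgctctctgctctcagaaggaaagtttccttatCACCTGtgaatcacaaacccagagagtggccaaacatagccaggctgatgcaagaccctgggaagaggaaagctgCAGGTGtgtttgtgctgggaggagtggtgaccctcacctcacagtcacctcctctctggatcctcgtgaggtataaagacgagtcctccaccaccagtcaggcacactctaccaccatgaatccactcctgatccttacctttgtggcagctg
CEL: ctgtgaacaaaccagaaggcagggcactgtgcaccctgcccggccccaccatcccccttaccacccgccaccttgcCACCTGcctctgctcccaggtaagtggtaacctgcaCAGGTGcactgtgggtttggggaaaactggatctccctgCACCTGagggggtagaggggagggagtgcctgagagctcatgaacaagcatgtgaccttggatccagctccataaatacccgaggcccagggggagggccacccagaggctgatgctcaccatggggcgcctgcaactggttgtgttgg
CPB1: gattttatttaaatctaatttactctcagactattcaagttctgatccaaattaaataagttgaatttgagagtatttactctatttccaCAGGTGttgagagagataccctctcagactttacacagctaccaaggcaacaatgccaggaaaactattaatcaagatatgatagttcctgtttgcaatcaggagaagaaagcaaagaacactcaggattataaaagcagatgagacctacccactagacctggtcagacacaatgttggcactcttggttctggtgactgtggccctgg
The first base of the motif lay 196, 184 and 82 bases before the start in CELA3A, 178 and 103 bases before it in PRSS1, 174, 138 and 99 bases before it in CEL, and 160 bases before it in CPB1. A match is a description of these letters, not a bound site.

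Islet genes were at background with few exceptions. Of 25 hormone and granule genes, 2 were present (8%), 4 mixed and 19 absent, with their median at 75.8% of the ranking. INS, the insulin gene, read 150.4, 153, 139 and 134, falling in the range of the olfactory receptor probes. ENO2, an enolase of neuroendocrine cells that many tumour lines also express, averaged 246 ± 26.4. CHGA, a granule protein, read 123, 126, 116 and 129, and the hormone genes GCG, SST and IAPP were absent. Among 13 islet transcription factors, MNX1 (216 ± 29.4) and PDX1 were present, 4 were mixed and 7, among them NEUROG3 and NKX6-1, were absent. PDX1, the factor needed to form the pancreas, read 150.3, 166, 166 and 188, low but above the threshold on every array, on 1 of 2 probes. The means of ENO2, MNX1 and PDX1 also lie in the range of the olfactory receptor probes.

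Factors that set up the pancreas or the acinar state were present in part. Of 20 measured, 11 were present (55%), 1 mixed and 8 absent, with a median at 49.4% of the ranking, close to the values for all genes. FOXA2, a pioneer factor of gut endoderm, read 4883, 4883, 3984 and 4059.7 on 1 of 3 probes, the other probes being near or below the threshold. XBP1, which drives the secretory machinery of enzyme-making cells, averaged 3415 ± 228. NR5A2, a nuclear receptor of acinar genes, averaged 233 ± 19.7. GATA4, a factor of the early pancreas, averaged 147 ± 12.8, near the threshold. The means of NR5A2 and GATA4 lie in the range of the olfactory receptor probes. HES1, the Notch-induced repressor of early progenitors, averaged 301 ± 16. PTF1A, the acinar bHLH partner of E proteins, read 89.9, 84.4, 93.7 and 88.3, below the threshold on all 4 arrays. BHLHA15, also called MIST1, which completes acinar maturation, was absent as well at 85.8 ± 6.72. RBPJL, the third protein of the PTF1 complex, was mixed and read 130.4, 128, 126 and 122. GATA6, a factor of the classical pancreatic cancer state, was absent at 119, 113, 101 and 117, as were ONECUT1 and KLF5.

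Epithelial and mesenchymal genes were both present in untreated cells. Of 40 epithelial junction genes, 25 were present (62.5%), 4 mixed and 11 absent, with a median at 43.4% of the ranking. Of 38 mesenchymal state genes, 23 were present (60.5%), 6 mixed and 9 absent, with a median at 43.3%. All genes had a present share of 51.9%, so both lists stood only a little above it. CDH1, which encodes E-cadherin, read 1270.2, 1501, 1276 and 1105. CDH2, which encodes N-cadherin, read 5049, 5153, 5725 and 6260.3. Both cadherin genes were thus above the threshold on every array. EPCAM, an adhesion molecule of epithelia, read 611, 519, 566 and 706. SPINT2, an inhibitor of epithelial surface proteases, averaged 17589 ± 723, and CTNNA1, which ties cadherins to actin, 8661 ± 640.5. Present members on the epithelial side were mostly cadherin, catenin, desmosome and claudin genes. VIM, the intermediate filament gene of mesenchymal cells, read 38751, 34226, 40510.3 and 38751 and was rank 19 of all genes. CD44, a hyaluronan receptor, read 19552, 20414, 24671 and 20812. CAV1, the main protein of caveolae, read 14823, 14953, 15770.5 and 14541. S100A4, a calcium-binding protein of motile cells, averaged 9401 ± 2304. AXL, a receptor tyrosine kinase linked to the mesenchymal state, read 7302, 8875, 8242 and 4989, lowest on array 4. All of these stood far above the threshold on the 4 arrays.

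Several regulators of the 2 states were not present. ESRP1 and ESRP2, splicing factors of epithelial cells, were absent, and ESRP1 read 105, 123, 116 and 115. GRHL2, a transcription factor of epithelial genes, was absent at 78.3, 81.9, 90.5 and 88.3, as was EHF. ELF3, another epithelial factor, was present at 309.8 ± 22.3. On the mesenchymal side ZEB1, a repressor of E-cadherin, read 117, 135, 139.8 and 96.8 and was above the threshold on 2 of 4 arrays. Of the ZEB, SNAI and TWIST genes named beside it, SNAI2 was mixed at 138 ± 11.6 and TWIST1 at 122 ± 8.2. SNAI1 was absent at 92.9, 76.8, 75 and 90.8, and ZEB2 was absent at 105 ± 13.2. Among these named genes TWIST2 was the present one, at 199 ± 35.2, in the range also read from olfactory receptor probes. FN1, the fibronectin gene, which mesenchymal cells usually express strongly, was mixed and read 132, 133, 114 and 123. The junction genes OCLN, RAB25, ST14 and CRB3 and the matrix crosslinker gene LOX were absent.

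**Figure D2:**
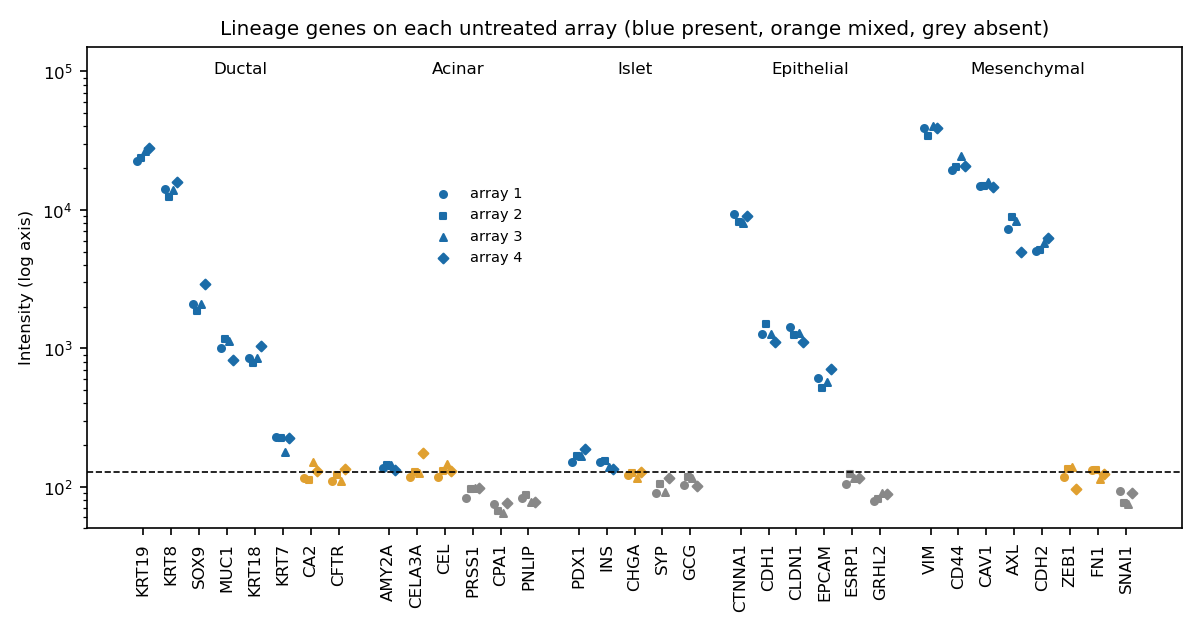
Intensity (log axis) of 33 lineage genes on each of the 4 untreated arrays, one marker shape per array, coloured by call, with the background threshold dashed. KRT19, KRT8, CTNNA1, VIM, CD44 and CAV1 lie far above the threshold on every array. Acinar and islet genes, ESRP1, GRHL2, ZEB1 and SNAI1 sit near or below it, and KRT7 lies a little above it.

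Few genes of the 2 tumour subtypes were present. Of 24 classical subtype genes, 4 were present (16.7%), 3 mixed and 17 absent, with a median at 78.1% of the ranking. AGR2, a protein disulfide isomerase of mucus cells, read 1721, 1562, 1915 and 1977. TSPAN8, a tetraspanin of gut epithelia, averaged 487 ± 28.3. TFF3, a trefoil peptide of mucus, averaged 325 ± 66.8. Of 21 basal-like genes, 5 were present (23.8%), 2 mixed and 14 absent, with a median at 69.6%. CTSV, a lysosomal protease, read 2086, 2193, 1989 and 1910.2. SLC2A1, the glucose transporter GLUT1, averaged 802 ± 93.3. KRT15, a keratin of basal cells, averaged 282 ± 12.4. Both shares lie below the 51.9% of all genes. Among 21 keratin genes 7 were present. KRT80 averaged 4115 ± 373, and KRT10, a keratin of upper epidermis, averaged 2991 ± 269. KRT5 and KRT14, the basal keratins, and KRT20, the intestinal one, were absent.

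Markers used for stem-like tumour cells were present in 9 of 18 cases (50%), close to the 51.9% of all genes. ALDH1A3, a retinaldehyde dehydrogenase, read 6339, 5872, 5869 and 5629. LIN28B, which blocks let-7 microRNA maturation, averaged 339 ± 14.2. ABCG2, an efflux pump, averaged 171 ± 12.1, and DCLK1, a kinase of tuft cells, 144 ± 15, both near the threshold. PROM1 (CD133), CXCR4, KIT and NANOG were absent. Claudin genes, the strands of tight junctions, were present in 11 of 21 cases (52.4%), again close to the share of all genes. They were led by CLDN1 (1270.2 ± 127) and CLDN12 (1119.9 ± 82.9), and CLDN18, a claudin of gastric cells, was absent.

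Markers of other cell types checked the labelled cell type. Of 94 such genes 14 were present (14.9%, beside 51.9% of all). No endothelial marker was present. Of 12, 2 were mixed and 10 absent, PECAM1, VWF and CDH5 among them, and without array 1 the number present was 1. For hepatocytes 1 of 14 was present, ALB at 190 ± 17.5, or 2 without array 1 or array 2. For red cells and muscle 1 of 17 was present, the myoglobin gene MB at 487 ± 51.5, or 3 without array 2 and 2 without array 4. The haemoglobin gene HBB was absent. Immune markers had 5 of 21 present, namely CD68, HLA-DRA, CD14, ITGAM and LYZ. CD68, a lysosomal protein not limited to macrophages, read 3991, 4122, 4174 and 4033. HLA-DRA, a class II antigen chain, averaged 420.3 ± 10.5, and the other 3 averaged between 156 (LYZ) and 307 (CD14). PTPRC, the pan-leukocyte gene, and the T cell gene CD3E were absent. Fibroblast markers had 3 of 16 present, namely COL5A1, THY1 and ACTA2. COL5A1, a chain of fibrillar collagen, averaged 6392 ± 529. COL1A1, COL1A2, DCN and RGS5 were mixed, and the other 9 were absent, LUM, PDGFRB and COL3A1 among them. ACTA2, the smooth muscle actin of activated stellate cells, averaged 217 ± 5.47. Neural markers had 4 of 15 present, among them TUBB3, a tubulin, at 7167 ± 266. MBP, whose gene also makes transcripts other than that of myelin basic protein, averaged 5879 ± 515. The summed immune signal was 6765 to 7061 on the 4 arrays, with CD68 the brightest member, and the summed endothelial signal was 1154 to 1229, beside 1532 for 12 genes at the threshold.

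**Figure D3:**
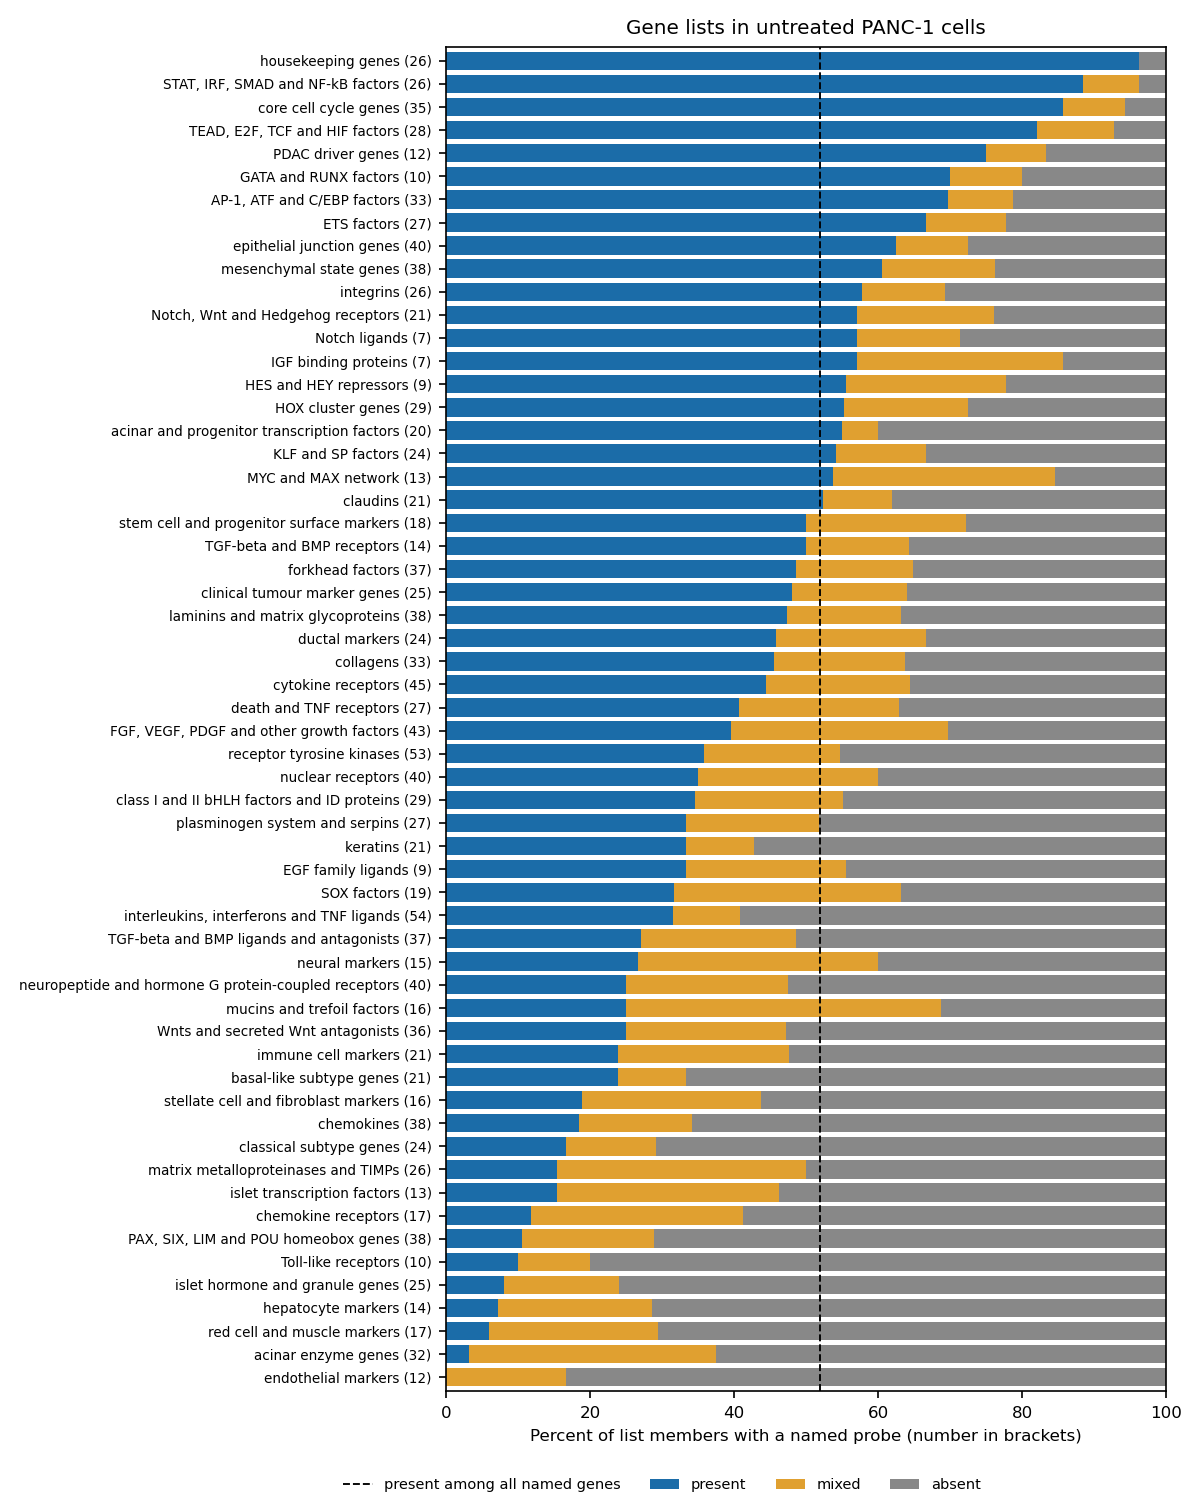
Percent of the measured members of each of 58 gene lists that were present, mixed or absent on the untreated arrays, with the number of members in brackets and the present share of all named genes (51.9%) dashed. Housekeeping, signalling factor and cell cycle lists stand at the top, and acinar enzyme and endothelial lists at the bottom.

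Among the 362 transcription factor genes listed, 187 were present (51.7%), close to the share of all genes, and the shares of single families ran from 10.5% to 88.5%. The bHLH family of E47 itself had 10 of 29 members present (34.5%), 6 mixed and 13 absent. TCF3, the gene that encodes E47 and E12, read 809, 703, 725 and 883. Whether its probe also reads the introduced E47 is not given in the sources used here. TCF12, a related E protein, averaged 1044 ± 110. TCF4, the other E protein, was absent at 91.5 ± 3.67. Of the 4 inhibitors, 3 stood well above the threshold. ID1 read 5910.4, 7293, 7056 and 8978. ID3 read 2259, 2123, 2106 and 2810. ID2 read 503, 482, 442 and 582. ID4 was absent at 70.9 ± 3.8. Thus 2 E protein genes and 3 of 4 ID genes were present on all 4 arrays before induction. BHLHE40, a stress and clock repressor, averaged 3242 ± 204. Tissue-specific partners of E proteins such as MYF5, OLIG2, TAL1 and ATOH1 were absent, and TAL1's relative LYL1 was present at 172 ± 10.4.

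Repressors of the HES and HEY family were present in 5 of 9 cases (55.6%, beside 51.9% of all genes). HES4 averaged 4122 ± 335 and HES6 1427 ± 159. MYC, the growth-promoting bHLH factor, read 3509.6, 3850.4, 3820.4 and 4129, and 7 of 13 genes of its network were present (53.8%). Among forkhead factors 18 of 37 were present (48.6%), among them FOXO3, a stress-response factor, at 2738 ± 329. FOXM1, which drives mitotic genes, averaged 770 ± 131. Of SOX factors 6 of 19 were present (31.6%), led by SOX9 and SOX4 (1245 ± 101). GATA5, a factor of gut and heart, averaged 2329 ± 339, whereas GATA6 and the blood factor GATA1 were absent.

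HOX genes, which give cells their position along the body axis, were present in 16 of 29 cases (55.2%, beside 51.9% of all genes). All but 2 of these lay in the HOXB and HOXC clusters. HOXC6 averaged 4547 ± 156 on 1 bright probe of 4, and HOXC13 averaged 4264 ± 463. In the HOXB cluster, HOXB5 averaged 3180.2 ± 267, and HOXB7 averaged 2193 ± 361. In the HOXD cluster HOXD4 was present at 158 ± 24.5, and HOXD1, HOXD8, HOXD9, HOXD12 and HOXD13 were absent. HOXA2 was present at 231 ± 13.5, and 10 other HOXA genes were not analysed here. Homeobox genes of the PAX, LIM, POU and sine oculis classes, mostly of neural and organ-specific use, had 4 of 38 present (10.5%), with SIX5 at 1460.3 ± 226.

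Signal-dependent factors were mostly present. STAT, IRF, SMAD and NF-kB genes had 23 of 26 present (88.5%, beside 51.9% of all genes), and SMAD9 was absent. SMAD3, an effector of TGF-beta, averaged 4298 ± 524. STAT3, an effector of interleukin-6 family cytokines, averaged 4063 ± 364, and NFKB1 averaged 3526 ± 328. TEAD, E2F, TCF and HIF genes and related factors had 23 of 28 present (82.1%). TFDP1, the partner of E2F proteins, averaged 4106 ± 475. YAP1, the effector of the Hippo pathway, averaged 2087 ± 231. AP-1, ATF and C/EBP genes had 23 of 33 present (69.7%). ATF4, a factor of the amino acid and unfolded protein response, averaged 6998 ± 903. FOSL1, an AP-1 member of invasive tumour lines, averaged 2425 ± 420.4. ETS factors had 18 of 27 present (66.7%), with ETS1 at 2565 ± 274 and ELF4 at 2972 ± 258. SPI1, the myeloid factor, and ERG, the endothelial one, were absent. KLF and SP factors had 13 of 24 present (54.2%), close to the share of all genes, with KLF6 at 3921 ± 493.

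Nuclear receptors had 14 of 40 present (35%), 10 mixed and 16 absent. PPARG, the fatty acid-sensing receptor, read 5829, 6826, 6498 and 4844 on its brightest probe. RARA, a retinoic acid receptor, averaged 1445 ± 82.5, and its partner RXRA averaged 1224 ± 70.9. ESR1, the estrogen receptor alpha that tamoxifen binds, was absent at 100.2, 106, 117 and 117. ESR2, the beta receptor, was mixed and read 135, 105, 99.7 and 113. So no estrogen receptor gene was called present. NR3C1, the glucocorticoid receptor, was present at 339.5 ± 34.8, and the vitamin D receptor gene VDR was mixed at 124 ± 20.3.

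Among 253 receptor genes listed, 97 were present (38.3%, beside 51.9% of all genes). Receptor tyrosine kinases had 19 of 53 present (35.8%), 10 mixed and 24 absent. EGFR, the receptor for epidermal growth factor, read 911, 905, 940.4 and 863. ERBB2, its partner that binds no ligand, read 545, 615, 592 and 473. MET, the receptor for hepatocyte growth factor, read 1302, 1293, 1383 and 1229. All 3 were above the threshold on every array, EGFR on 2 of its 4 probes and ERBB2 on 1 of its 3. EPHA2, an ephrin receptor, averaged 1483 ± 315. DDR1, a receptor for collagen, averaged 1021 ± 144. ERBB3, the kinase-poor neuregulin receptor, was mixed and read 122, 149.9, 125 and 156. IGF1R, the receptor for insulin-like growth factors, was mixed too at 118 ± 19.6. FGFR1 was absent at 96.6 ± 9.01, as were FGFR2, KDR, PDGFRA and PDGFRB, and FGFR3 was present at 261 ± 26.1.

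TGF-beta and BMP receptors had 7 of 14 present (50%, beside 51.9% of all genes). TGFBR2, the ligand-binding receptor of TGF-beta, read 1439, 1214, 1144 and 1229. TGFBR1, its signalling partner, read 99.1, 139, 107 and 99 and was mixed. ACVR1B, the activin receptor kinase, was present at 894 ± 161. Notch, Wnt and Hedgehog receptors had 12 of 21 present (57.1%), also close to the share of all genes. NOTCH1 read 468, 450.2, 467 and 440. NOTCH2 read 505, 439, 452 and 430.1. Both were above the threshold on all arrays, NOTCH2 on its brightest probe alone. LRP5, a Wnt co-receptor, averaged 3025 ± 313, and the frizzled gene FZD7 averaged 946 ± 152. NOTCH3 was absent at 109.8 ± 15.8, and the Hedgehog receptor genes PTCH1 and SMO were absent.

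Cytokine receptors had 20 of 45 present (44.4%), with a median at 54.7% of the ranking. IL13RA1, a receptor chain for interleukin-13, averaged 7683 ± 825. IFNGR2, a chain of the interferon-gamma receptor, averaged 6541 ± 838. IL6ST, the subunit shared by the interleukin-6 family, averaged 2305 ± 212. Subunits of lymphocyte receptors such as IL2RG, IL10RA and IL9R were absent. Death and TNF receptors had 11 of 27 present (40.7%, beside 51.9% of all genes), with TNFRSF12A, the TWEAK receptor, at 3344 ± 329. TNFRSF10B, a receptor for TRAIL, averaged 1137 ± 90.9. Toll-like receptors had 1 of 10 present, TLR6 at 151 ± 11.1. Of 17 chemokine receptors, CCR6 and CCR9 (167 ± 26.8) were present.

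Integrins, the receptors for matrix, had 15 of 26 present (57.7%, close to the 51.9% of all genes). ITGB1, the beta-1 chain shared by most of them, read 19039, 20346, 18471 and 18197. ITGA3, a chain of laminin receptors, averaged 6736 ± 1059.7. ITGAV, a chain of receptors for RGD-bearing matrix proteins, averaged 4538 ± 540, and its partner ITGB5 averaged 10091 ± 1372. Integrin chains known from blood cells stood on both sides of the threshold. ITGAE averaged 1689 ± 90.6, ITGB2 859.7 ± 89.8 and ITGAM 169 ± 8.97, and ITGA4 and ITGB7 were present too, while ITGAL, ITGAX, ITGAD and ITGA2B were absent. Neuropeptide and hormone receptors had 10 of 40 present (25%), with NTSR1, the neurotensin receptor, at 861 ± 80.5. PTGER4, a prostaglandin E2 receptor, averaged 1231 ± 118. SSTR2, a somatostatin receptor, averaged 176 ± 8.95. The cholecystokinin receptor genes CCKAR and CCKBR and the incretin receptor gene GLP1R were absent.

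The lists of secreted products had 129 of 388 genes present (33.2%, beside 51.9% of all genes). They also hold Notch ligands, which stay in the membrane, and clinical tumour marker genes such as KRT19 and PSCA, which are not all secreted. DKK1, a secreted Wnt inhibitor, read 13182, 13747, 14474 and 14120.5, rank 208. Its relative DKK3 averaged 5887 ± 593. Of 36 Wnts and Wnt antagonists 9 were present, and WNT5B (550.2 ± 66.7) and WNT7B (547 ± 79.3) were the brightest Wnt probes. Notch ligands had 4 of 7 present (57.1%). DLL3, a divergent ligand that inhibits Notch in the same cell, read 12465, 13315, 14288 and 10726 on its brighter probe. JAG1 averaged 452 ± 35.9, and JAG2 averaged 561 ± 27.5. Among TGF-beta family ligands and antagonists 10 of 37 were present, and GDF15, a stress-induced factor, read 792, 797, 816 and 843. TGFB2 averaged 544 ± 18.3, and TGFB1 was absent at 90.1 ± 6.3.

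Growth factor genes had 17 of 43 present (39.5%, beside 51.9% of all genes). MDK, the heparin-binding factor midkine, averaged 3309 ± 371. VEGFB averaged 5842 ± 825, and VEGFA, the main factor of blood vessel growth, averaged 296 ± 28.2. All 3 were present on every array, MDK through 1 of its 5 probes, and the dimmest VEGFB probe averaged 123. EGF family ligands had 3 of 9 present, and TGFA, EGF and BTC were absent. NRG1, the neuregulin that binds ERBB3, averaged 736 ± 60.3. HBEGF, a ligand of EGFR, averaged 440 ± 58.9, and EREG, another, 142 ± 8.63. Of 7 IGF binding proteins 4 were present (57.1%), with IGFBP4 at 582 ± 110.

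Chemokines had 7 of 38 present (18.4%). CCL2, which draws monocytes, read 3560.3, 3604, 4669 and 3469.8. CX3CL1, a membrane-bound chemokine, averaged 1433 ± 107. CXCL8, which draws neutrophils, averaged 334 ± 48.4. Interleukin, interferon and TNF ligand genes had 17 of 54 present (31.5%), 32 being absent. MIF, a cytokine made by many cells, read 14077, 12947, 9895 and 17517. IL18, an inflammasome-processed cytokine, averaged 4685 ± 423. IL1A, IL1B and TNF were absent, and IL6 was mixed at 101 ± 19.5. IL10 averaged 1574 ± 181 on 1 probe, with its other probe at background.

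Several matrix genes were bright, though the lists of matrix genes had present shares below the 51.9% of all genes. TGFBI, an adhesion protein induced by TGF-beta in many cells, read 14706, 13618, 13666 and 13608. Of 38 laminins and matrix glycoproteins 18 were present (47.4%), and an alpha, a beta and a gamma laminin chain were among them. LAMA5 averaged 9879 ± 1158, LAMB1 1444 ± 231 and LAMC1 3447 ± 324. CCN1, a matricellular protein that YAP1 is known to induce, averaged 6928 ± 394. Collagen genes had 15 of 33 present (45.5%), with COL18A1, of basement membranes, at 6901 ± 1069. COL1A1, the main fibrillar collagen, was mixed at 148 ± 21.4, and COL5A1, a minor fibrillar one, was present at 6392 ± 529. TIMP1, a metalloproteinase inhibitor, read 10718, 11729.9, 10277 and 8938, and 4 of 26 metalloproteinase and TIMP genes were present (15.4%), MMP2 at 204 ± 29.3 among them, and 8 were without array 2. PLAU, the urokinase gene, read 10865, 10133, 8346 and 8967. Its receptor gene PLAUR averaged 259 ± 11.1. Mucins and trefoil genes had 4 of 16 present, and MUC16, which carries the CA-125 antigen, was mixed at 131 ± 16.2. Of 25 genes used as tumour markers in serum or tissue, 12 were present (48%), with MSLN, the mesothelin gene, at 492 ± 84.7. CEACAM5, which encodes the carcinoembryonic antigen, CEACAM6 and S100P were absent.

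Proliferation genes were bright. Of 35 core cell cycle genes, 30 were present (85.7%), 3 mixed and 2 absent, with a median at 7.39% of the ranking. CDC20, an activator of mitotic exit, read 14541, 12113, 13505 and 9895. MCM7, a subunit of the replicative helicase, averaged 11690.4 ± 1128. TOP2A, the topoisomerase of dividing cells, averaged 6265 ± 408. CCND1, the G1 cyclin D1, averaged 5696 ± 662. Among the inhibitors, CDKN1A, which encodes p21, was present at 3210, 3282, 3410 and 2948. CDKN1C, which encodes p57, was mixed at 132 ± 7.8, and CDKN2A was absent. For comparison, 25 of 26 housekeeping genes were present. The exception, NPM1, encodes a nucleolar protein that most cells make, had 1 named probe and read 93.9, 106, 111 and 121. An absent call is thus a statement about the probes of a gene.

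Driver genes of pancreatic cancer had 9 of 12 measured members present (75%, beside 51.9% of all genes). Among them was SMAD4, the shared effector of TGF-beta signalling, at 1764, 1222, 1749 and 1423. ARID1A, a chromatin remodelling subunit, averaged 4115 ± 115. CDKN2A, which encodes p16 and p14ARF and is known to be deleted in PANC-1, read 108, 116, 87.5 and 103. Its neighbours on chromosome 9, in the order of the annotation, were MTAP before it and CDKN2B-AS1, CDKN2B and DMRTA1 after it. MTAP, an enzyme of methionine salvage often lost with CDKN2A in tumours, read 137, 129.6, 116 and 144 and passed the threshold on 3 arrays. CDKN2B, which encodes p15, read 135, 126, 127 and 147. All 5 lay at or near background. The nearest present genes were KLHL9 (607 ± 111) on one side, past interferon genes that were mostly absent, and TUSC1 (217 ± 26.1) on the other. PLAA (497 ± 78.2) and IFT74 (266 ± 19.5), farther along, were present as well.

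The 4 arrays agreed closely, with 1 standing a little apart. Over the 10403 present genes, which are not independent replicates, arrays correlated at 0.9898 to 0.9944 (Pearson, log2 intensity). The 3 pairs with array 4 had the lowest values, 0.9898 to 0.9907, against 0.9935 to 0.9944 among arrays 1 to 3. The median SD of log2 intensity was 0.13 for present genes, 0.17 for mixed and 0.12 for absent ones, and the median coefficient of variation of present genes was 9.23%. Cut into 4 equal sets by signal, it was 9.24% in the dimmest set and 9.02% in the brightest. Of the 100 present genes with the largest spread, array 4 was the farthest from the other arrays for 72, higher for 24 and lower for 48, and arrays 1, 2 and 3 for 4, 9 and 15. With array 4 left out, 10598 genes were present, a count that can only grow when fewer arrays must pass, and the median SD of log2 intensity was 0.11.

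Among the 12 present genes of largest spread, array 4 was the extreme one for 11. With array 4 left out, 1 of the 12 was still among the 12 of largest spread. SLC35F6, a solute carrier, read 932, 783, 912 and 441, lowest on array 4. NOCT, a clock-controlled phosphatase, read 778, 727, 689 and 376, lowest there too. MTMR1, a lipid phosphatase, read 175, 178, 202 and 350.1 and was highest on array 4. USP22, a histone deubiquitinase, read 474, 522, 505 and 920, also highest there. ITGB3BP was the exception, with 459.8, 601, 975 and 573 and its high value on array 3. The remaining genes, TMBIM1, RSPRY1, TSEN15, SNAR-A1, TRUB1, CLDN23 and EIF3CL, were lowest on array 4. These values are of the brightest probe, and the other probes of TSEN15, MTMR1 and USP22 did not follow. Those of TSEN15 were highest on array 4, reading 451, 384, 407 and 498, and 220, 173, 185 and 226. That of MTMR1 read 145, 148, 126 and 138. That of USP22, below the threshold, read 97.2, 95.7, 99.5 and 55.9.

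**Figure D4:**
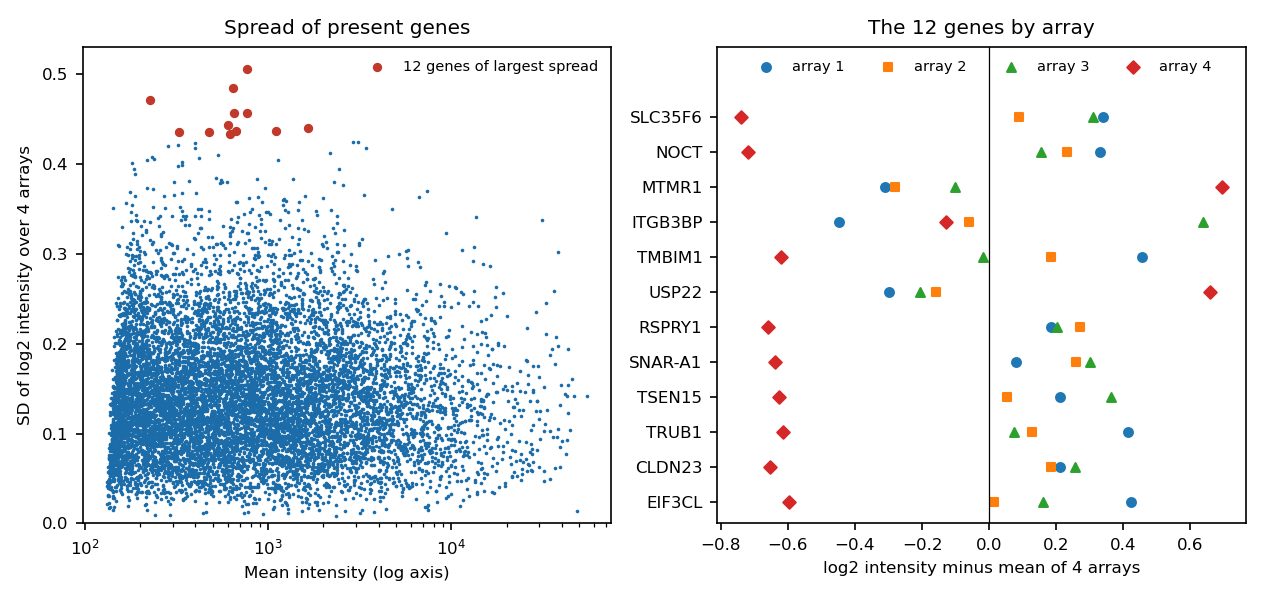
Left, SD of log2 intensity over the 4 untreated arrays against mean intensity (log axis) for each present gene, with the 12 of largest spread in red. Right, log2 intensity minus the mean of the 4 arrays for those 12, one marker per array; array 4 is lowest for 9 of them and highest for MTMR1 and USP22.

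Promoters differed between present and absent genes in base composition. Over the protein-coding genes with a promoter in the RefSeq table, 8344 were present, 1771 mixed and 4325 absent. A promoter was called CpG-rich when its GC content was at least 55% and its observed over expected CpG ratio at least 0.65. This held for 75.8% of present, 43.9% of mixed and 31.9% of absent genes, and for 58.7% of these 14440 genes together and 41.9% of all 27305 promoters of the table. Median GC content was 65.3% in present and 57% in absent genes. The GC box GGGCGG, on either strand, stood in 71.2% of present and 40.9% of absent genes (59.7% of the 14440 and 44.6% of all promoters), and TATAAA, on either strand, in 5.25% and 16.7% (9.4% of the 14440 and 12% of all). Any E-box, CANNTG, which contains CAGGTG as a special case, stood in 58.9% of present and 72.2% of absent genes (64.2% and 68.9%), and CAGGTG on either strand in 17.3% and 22.3% (19.5% and 20.6%). These are descriptions of windows that differ in base composition between the groups, and the motif counts were not adjusted for it. A match is not a site.

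The same features were counted in 3 of the lists, as a description. No promoter of 25 acinar enzyme genes was CpG-rich, and 13 held TATAAA. Of 21 epithelial junction genes with a promoter, 14 were CpG-rich and 10 (47.6%) held CAGGTG, and of 28 mesenchymal state genes 14 were CpG-rich and 3 (10.7%) held CAGGTG. A bright gene and a gene at background are printed side by side, with each CG dinucleotide in capitals. S100A10, of rank 5, lies at chr1:151993810-151994109 on the minus strand and has 32 CG in its 300 bases, and PNLIP, absent, lies at chr10:116545681-116545980 on the plus strand and has 6.
S100A10: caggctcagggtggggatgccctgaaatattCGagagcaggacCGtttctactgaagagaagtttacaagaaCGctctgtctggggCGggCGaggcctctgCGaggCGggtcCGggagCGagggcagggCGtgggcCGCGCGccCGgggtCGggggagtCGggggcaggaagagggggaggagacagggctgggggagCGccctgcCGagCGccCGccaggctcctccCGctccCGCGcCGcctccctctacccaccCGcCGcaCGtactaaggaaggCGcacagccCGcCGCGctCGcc
PNLIP: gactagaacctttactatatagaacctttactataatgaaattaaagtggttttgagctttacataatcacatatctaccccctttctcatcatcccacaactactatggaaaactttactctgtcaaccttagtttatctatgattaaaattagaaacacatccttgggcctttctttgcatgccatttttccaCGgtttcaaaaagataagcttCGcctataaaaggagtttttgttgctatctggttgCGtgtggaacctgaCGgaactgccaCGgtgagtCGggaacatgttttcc

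**Figure D5:**
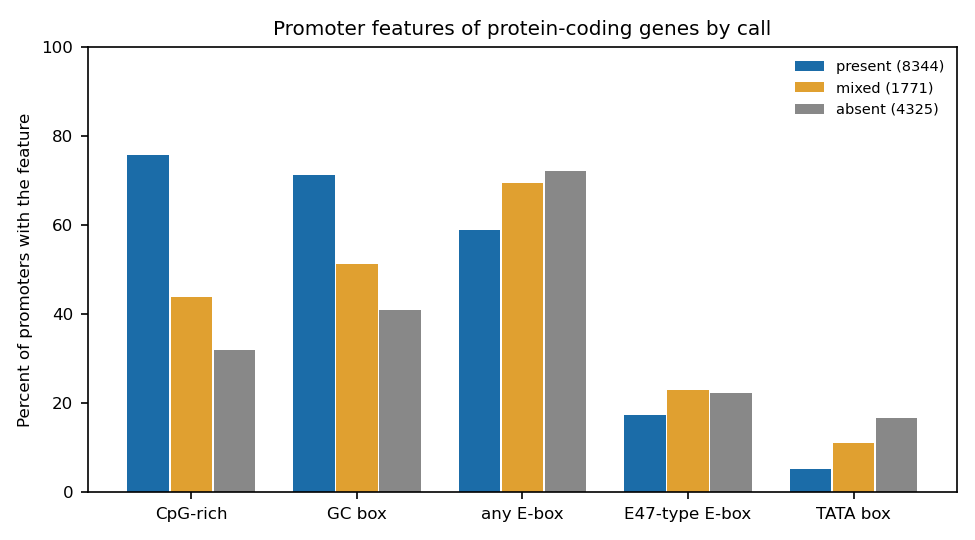
Percent of promoters, 250 bases before to 50 after the start, that are CpG-rich or hold a GC box, any E-box, the E47-type E-box or a TATA box, for present (8344), mixed (1771) and absent (4325) protein-coding genes. The CpG-rich and GC box bars are highest in present and lowest in absent genes, and the TATA box and any-E-box bars are lowest in present and highest in absent genes.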

How the data were processed

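Intensities were used as deposited by the authors, on a linear scale. Per the submitters' processing notes they came from GenomeStudio (version not given in the sources used here). Per the labels' protocols, biotin-labelled cRNA was made from 500 ng of RNA. Tested on the file, the sorted columns differed by at most 0.912 intensity units, so the arrays had been quantile-normalized, and no 2 arrays held identical values. A further table has 24 columns (12 of values and 12 of detection p-values) whose names match no sample label, and these were not used, so the threshold was estimated from the intensities (lowest 46.2, highest 63623).

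Groups and replicate numbers came from the titles. Of 47323 probes, the platform annotation supplied gives 30113 to 1 gene, 8 to several and 17202 to none, and 3836 of the last were above the threshold on all 4 arrays. Symbols were updated through RefSeq (GRCh38.p14), where 30074 probes matched. A gene's value is that of its probe with the highest mean. The threshold is the one stated with the choice of arrays, and the smoothing of the intensity distribution was chosen to reproduce it. The members and the 58 gene lists (1466 genes) were chosen with earlier results of these data known. With 1 group no conditions were compared, and the only test was Dixon's criterion per gene over the 4 arrays. Named by rule were the 30 brightest genes, up to 6 present and some mixed members of each list, a fixed set of lineage genes, the 12 of largest spread and 3 on each side of the threshold, 484 in all. A further 35 genes given with values, such as other list members and the neighbours of CDKN2A, and absent genes given by name, were chosen after their values were seen. Promoter sequences are from RefSeq. No positions are given for the probes, and 15034 named genes had a promoter. Alternatives changed the threshold, the array rule, the probe, the correction (normexp, offset 50, limma 3.58.1, R 4.3.3) and the arrays. Calculations used Python 3.11.15, pandas 2.3.3 and numpy 2.4.6, and the calling script was tested on simulated data.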

Additional observations from a re-analysis of the deposited data

Results flagged for a closer look

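For each of 228 genes given with values, the highest or lowest of the 4 untreated arrays was set against the other 3, and 19 genes had 1 array apart by Dixon's criterion. Chance flags about 1 in 20 groups, a rate that does not hold for genes chosen for their spread or their place at the threshold, such as MTMR1, USP22 and ADGRG4. Array 1 stood apart for 6 genes, array 2 for 3, array 3 for 4 and array 4 for 6. On array 1, ADGRG4 was high at 205, the others reading 128 to 139. EEF1A1 was high at 63623, the others reading 51905 to 53106. PRSS1 was low at 83.5, the others reading 96.2 to 98.6. TGFB2 was high at 571, the others reading 531 to 536. TGFBI was high at 14706, the others reading 13608 to 13666. TOP2A was low at 5658, the others reading 6408 to 6504. On array 2, ELF4 was high at 3358, the others reading 2811 to 2868. EREG was low at 129, the others reading 146 to 147. LAMC1 was high at 3927, the others reading 3224 to 3336. On array 3, CCL2 was high at 4669, the others reading 3469.8 to 3604. HES6 was high at 1663, the others reading 1321 to 1373. KRT7 was low at 177, the others reading 224 to 230.1. MUC16 was low at 107, the others reading 137 to 139.8. On array 4, ACTG1 was high at 50952, the others reading 32352 to 34908. CX3CL1 was low at 1274, the others reading 1466 to 1498. LAMB1 was high at 1788, the others reading 1302 to 1348. MTMR1 was high at 350.1, the others reading 175 to 202. S100A4 was high at 12824, the others reading 7928 to 8691. USP22 was high at 920, the others reading 474 to 522. The dimmer probes of MTMR1 and USP22 were not high on array 4. The value of EEF1A1 on array 1 is the highest of each array, as the quantile normalization sets it, so its gap is that between the first place and the next ones. No cause was tested for any of these.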

How the results depend on the processing

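No paired analysis was possible because 1 group was used, which holds each replicate number once. Present genes numbered 9565 at a stricter threshold (149 in place of 127.7), 11190 at a looser one (118), 11125 with 3 of 4 arrays enough, and 10565 to 10600 with 1 array left out (which can only add genes), beside 10403. The highest probe alone gave 10399. Thresholds from 2 other smoothings, added after the data were seen (123 and 129), gave 10676 and 10320. Mixed genes numbered 1553 (stricter) and 752 (3 of 4 arrays), beside 2705. Small counts of present members moved most. Acinar enzymes numbered 0 (stricter), 4 (looser), 4 (3 of 4 arrays), 2 (threshold 123) and 1 to 3 with 1 array left out, beside 1. Islet hormone genes numbered 1 (stricter), beside 2. At the looser threshold, endothelial markers numbered 1, hepatocyte markers 2, red cell and muscle markers 2, neural markers 7 and fibroblast markers 5. With 3 of 4 arrays enough, endothelial markers numbered 1, hepatocyte 3, and red cell and muscle 4, the last being 2 at threshold 123. With 1 array left out, endothelial markers ran from 0 to 1, hepatocyte markers from 1 to 2, and red cell and muscle markers from 1 to 3. Of the 30 brightest genes, 19 remained when a gene's probes were summarised by their median, and 29 to 30 when 1 array was left out. The median over probes moved 167 of the 221 named genes with several probes by 1 SD or more. With 4 arrays, leaving out 1 cannot move a mean by 1 SD. Normexp kept 11 of the 12 genes of largest spread, and leaving out array 4 kept 1. The cause was not tested. Signal near background limits every call between 118 and 149, and 1 group of 4 arrays allows no test of a condition.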

Other observations

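Genes of no named use in this line lay in long runs of absent calls along the chromosomes, where 34.6% of all genes were absent. Runs follow the order of the annotation and count protein-coding genes with a named probe. Noncoding genes and pseudogenes between them were passed over, whatever their call. The longest run held 18 genes on chromosome 12, from NCKAP1L, a gene of blood cells, to the olfactory receptor gene OR6C70. A run of 16 on chromosome 11 went from OR51S1 to the fetal globin gene HBG1, through HBB and HBD. Another of 16, on chromosome 21, held keratin-associated protein genes of hair, and 2 of 81 such genes were present over the whole genome. The type II keratin cluster of chromosome 12 had 15 absent genes in a row, from KRT84 to KRT79, with KRT5 and KRT1 among them. On chromosome 7, 13 absent genes from PRSS58 to TAS2R40 included the trypsinogen genes PRSS1 and PRSS2 beside olfactory and taste receptor genes. Such runs are a description and were not tested.

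Classes of genes differed in how often they were present. Among protein-coding genes 55.8% of 17777 were present, among long noncoding RNA genes 23.3% of 798 and among microRNA genes 3.92% of 561. MIR586 (968, 1253, 1088 and 1126) and MIR1228 (955, 1022, 931 and 1186) were among the 22 present microRNA genes, and these probes read labelled RNA from total RNA, not mature microRNAs as such. Of 85 histone genes 30 were present, and of 77 heat shock protein genes 58. Of 37 beta-defensin genes, which encode antimicrobial peptides of epithelia, 1 was present. S100 genes, which encode small calcium-binding proteins, had 8 of 19 present. Among the autosomes and X, with Y not counted, the present share ran from 41.4% on X and 44.3% on 4 to 62.6% on 16. A further 3836 probes without a named gene exceeded the threshold on all 4 arrays and were not analysed here.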
